A study of Mus musculus with 9 samples.

Results

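Cholesterol and fatty acid synthesis was followed through 33 genes in RNA-seq counts of melanocyte lineage cells from mouse skin. The genes were taken by symbol from a fixed list, and all 33 were found among the 49671 genes of the count tables. They comprise 7 genes of the mevalonate steps, 11 of the sterol steps, 5 regulators of the pathway, 3 of fatty acid synthesis, and 7 desaturases and elongases. Every member had counts in each of the 9 libraries, and all 33 passed the filter on low counts. The study compared 3 ages. There were 3 libraries of melanoblasts, which are melanocyte precursors, from pups at postnatal day 0.5. There were 4 libraries of quiescent melanocyte stem cells (McSC) from adults of 8 to 10 weeks, and 2 from aged mice of 24 months. All cells were sorted from dermis of the body skin of wild-type C57BL/6 female mice by the receptor KIT and the lack of CD45, an immune cell marker. Adult and aged skin was taken in telogen, the resting stage of the hair cycle, when per the labels the follicle holds stem cells and no differentiated melanocytes. The sort enriches these cells and does not purify them. Each library holds a pool of several animals, and p-values therefore reflect differences among pools. The aged mice came from another colony, so age and colony cannot be told apart.

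Cells build cholesterol from acetyl-CoA through mevalonate, isoprenoids and squalene, and they build fatty acids from the same acetyl-CoA through malonyl-CoA. Many genes of both branches are targets of SREBP transcription factors, which SCAP escorts out of the endoplasmic reticulum when sterols are low and INSIG proteins hold back when sterols are high. Desaturases then place double bonds in fatty acids and elongases lengthen them. Stearoyl-CoA desaturase, which makes oleate, is best known in skin from the sebaceous gland, where Scd1 loss in mice leaves the gland shrunken and the coat sparse.

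Total counts ran from 12594770 to 33710117 per library, and mitochondrial rRNA took 21.5% to 37.6% of them. Values below are CPM, counts per megacount of a library total scaled with TMM (trimmed mean of M-values) factors, which ran from 0.560 in melanoblast replicate 1 to 1.52 in aged replicate 1. The melanocyte marker list (9 genes, among them Kit, Sox10 and Dct) summed to 13959 to 25595 CPM in melanoblast, 4174 to 10441 CPM in adult and 7234 and 8465 CPM in aged libraries. Dividing cell markers, 5 of 5 lower in McSC of both ages, summed to 114 to 153 CPM in adult McSC and 2552 to 3683 CPM in melanoblasts. In such bulk samples, fewer cells of a type and less RNA per cell cannot be told apart.

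Between adult McSC and melanoblasts, 1 member rose and 14 fell at an adjusted p under 0.05 in edgeR's quasi-likelihood test. The rise was Scd1, a stearoyl-CoA desaturase, at 11.5-fold. The falls were of 1.57-fold to 2.41-fold and touched each role group. Of all genes tested, 33.4% were called in that comparison, 15.1% as higher and 18.3% as lower. Among genes of at least 5 CPM on average, a level that 31 of the 33 members reach, 12.3% rose and 48% fell, so the members' 42.4% of falls was above the share over all genes and below that at such levels. The members' median log2 fold change was -0.37, against a median of 0.39 over all genes and of -0.83 over the 4392 genes above a log2 CPM of 5. The libraries of both groups did not overlap for 11 members, 1 higher and 10 lower in adult McSC, beside 39.3% of all genes tested (19.5% higher and 19.8% lower). The count of falls is therefore no mark of the pathway, and the results below are those of single genes.

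Against the same melanoblast libraries, 1 member, Scd1, rose and 13 fell in aged McSC. Of all genes tested 40.7% were called, 20.4% as higher and 20.3% as lower, and 54.4% of those of at least 5 CPM on average fell, beside 39.4% of the members. The members' median was -0.54, against 0.70 over all genes and -1.15 over the abundant ones. The groups did not overlap for 3 members higher and 16 lower in aged McSC, beside 40.4% and 25.7% of all genes (66.2% in all). Both comparisons share their melanoblast libraries. Of the falls, 11 genes were called in both (Acat2, Cyp51, Nsdhl, Dhcr7, Scap, Acly, Fasn, Scd2, Elovl1, Elovl5 and Fads1). Another 3 were called in adult McSC alone (Tm7sf2, Insig1 and Insig2), 2 in aged McSC alone (Ebp and Srebf2) and 16 members in neither. Whether adult and aged McSC differ there is a separate comparison, given further on, in which no member was called.

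The direction of most members depended on how libraries were scaled. With factors set from abundant genes, the median over all genes moved to 1.15 in adult McSC and 1.78 in aged McSC, and 13 members were then higher and 0 lower in adult McSC, and 17 higher and 0 lower in aged McSC. With a stricter filter, which kept genes that reach 5 CPM in 2 or more libraries, 8 members were higher and 4 lower in adult McSC, and 8 higher and 5 lower in aged McSC. Where fewer than 17 of 17 alternative settings called a gene, most of the losses not ascribed to a library came with these settings, and the others without a filter, with RLE factors, with DESeq2, with a replicate block or with only the groups compared. Each fall below is therefore a fall relative to the TMM scale, and ratios within a library, which need no scale, are given after the levels.

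**Figure D1:**
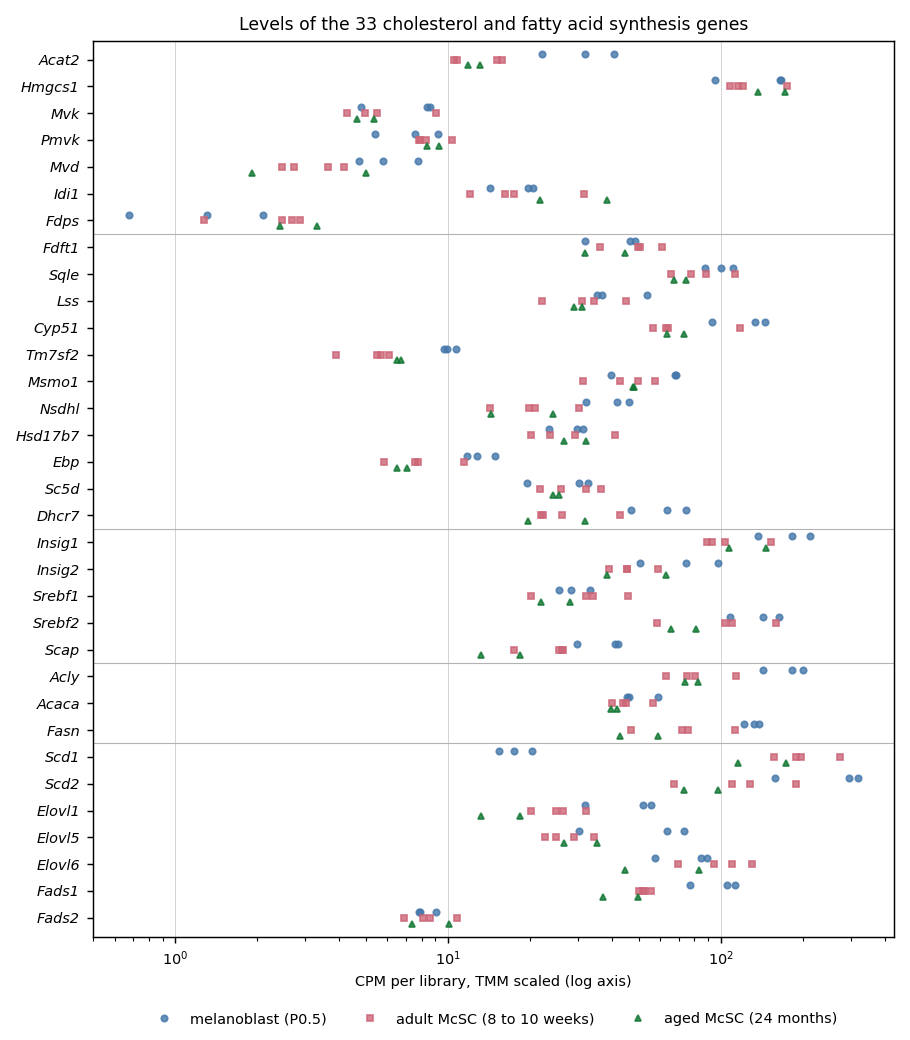
Levels of the 33 genes in the 9 libraries, in TMM-scaled CPM on a log axis, with 1 row per gene and gray lines between the mevalonate, sterol, regulator, fatty acid synthesis, and desaturase and elongase groups. Points are libraries of melanoblasts (n = 3), adult McSC (n = 4) and aged McSC (n = 2). Scd1 is the row where McSC libraries, at 116 to 273 CPM, lie far right of the melanoblasts, at 15.4 to 20.4 CPM.

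In the mevalonate steps, 1 of 7 genes fell in adult McSC and 0 rose, and the same counts held in aged McSC. That gene was Acat2, the cytosolic acetoacetyl-CoA thiolase that joins acetyl-CoA units. Acat2 had 31.8, 40.6 and 22.1 CPM in melanoblasts, 10.8, 15.7, 10.6 and 15.1 CPM in adult McSC, and 13.1 and 11.8 CPM in aged McSC. All 6 McSC libraries lay below all 3 melanoblast libraries. Its log2 fold change was -1.27 ± 0.25 in adult McSC (SE, adjusted p = 0.000352) and -1.33 ± 0.31 in aged McSC (adjusted p = 0.0019). It was called in 16 of 17 alternative settings in each, the exception being the factors from abundant genes. Part of Acat2 cannot be told from its neighbors by sequence, since 23.7% of its 126-base stretches, the read length, recur in Acat3 or Tcp1. Acat3 itself held 33 to 57 counts in McSC libraries and 14 to 56 counts in melanoblast libraries.

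The next enzymes of the branch did not pass the test. Hmgcs1, which makes HMG-CoA, had the highest CPM per kilobase of exons in these steps (28.3 in adult McSC and 30.9 in melanoblasts). Its level was 108 to 176 CPM in adult McSC and 95.1 to 166 CPM in melanoblasts, and its log2 fold change -0.13 ± 0.24. The kinases Mvk and Pmvk averaged 5.93 ± 2.13 and 8.58 ± 1.18 CPM in adult McSC and 7.27 ± 2.13 and 7.41 ± 1.91 CPM in melanoblasts (SD). Mvd, the decarboxylase that yields isopentenyl diphosphate, averaged 3.24 ± 0.79 CPM in adult McSC and 6.09 ± 1.55 CPM in melanoblasts, and its adjusted p of 0.071 missed the threshold although no libraries overlapped. Idi1, the isomerase of that product, had 21.8 and 38.1 CPM in aged McSC, above the 14.3 to 20.5 CPM of melanoblasts, with an adjusted p of 0.0903. Fdps, which makes farnesyl diphosphate, was the lowest member per kilobase in each group, at 0.678 to 3.32 CPM over all libraries. Those levels are close to the 95th percentile of 1431 olfactory and vomeronasal receptor genes, taken by name as a floor for stray counts. That percentile was 0.857 CPM in melanoblasts, 1.94 CPM in adult McSC and 2.37 CPM in aged McSC. The log2 fold changes of Fdps, 0.76 ± 0.51 and 1.07 ± 0.59 in adult and aged McSC, were not called. Of the 126-base stretches of Fdps, 19.2% recur in another gene, mostly Gm43738. The share was 20.2% in Idi1 (Gm13502 and Gm48574) and 7.35% in Hmgcs1 (Gm48342). Gm43738 overlaps exons of Fdps on the same strand and held 0 to 8 counts. The treatment of reads that match several genes was not given in the sources used here. The counts of Fdps, Idi1 and Hmgcs1 are therefore uncertain to an unknown extent. The part of shared reads in the low level of Fdps was not tested.

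In the sterol steps, 4 of 11 genes fell and 0 rose in adult McSC, and 4 fell and 0 rose in aged McSC. Dhcr7, the reductase that closes one route to cholesterol, moved furthest. Dhcr7 had 74.3, 63.7 and 47.0 CPM in melanoblasts, 22.4, 42.8, 21.9 and 26.3 CPM in adult McSC, and 31.7 and 19.6 CPM in aged McSC. No McSC library reached the lowest melanoblast library, though adult replicate 2 came near it. The log2 fold change of Dhcr7 was -1.12 ± 0.26 in adult McSC (adjusted p = 0.00152) and -1.26 ± 0.32 in aged McSC (adjusted p = 0.00359).

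Nsdhl, a dehydrogenase that takes part in removing methyl groups from the sterol ring, had 41.6, 46.0 and 32.0 CPM in melanoblasts, 14.3, 30.2, 19.9 and 20.8 CPM in adult McSC, and 24.3 and 14.4 CPM in aged McSC. McSC libraries of both ages lay below all melanoblasts. The log2 fold change was -0.91 ± 0.26 in adult McSC (adjusted p = 0.00882) and -1.04 ± 0.32 in aged McSC (adjusted p = 0.0132). Cyp51, the lanosterol demethylase, had 133, 146 and 92.8 CPM in melanoblasts, 56.5, 117.9, 63.2 and 63.9 CPM in adult McSC, and 63.8 and 73.5 CPM in aged McSC. Adult replicate 2 stood apart from its group and overlapped the melanoblasts. Cyp51 had a log2 fold change of -0.72 ± 0.25 in adult McSC (adjusted p = 0.0289) and -0.85 ± 0.31 in aged McSC (adjusted p = 0.0306).

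Tm7sf2, a sterol reductase of the endoplasmic reticulum, had 9.65, 10.7 and 9.89 CPM in melanoblasts, 5.49, 6.07, 3.88 and 5.70 CPM in adult McSC, and 6.75 and 6.48 CPM in aged McSC. The melanoblasts were tightly grouped and above every McSC library. It fell in adult McSC (log2 fold change -0.93 ± 0.29, adjusted p = 0.0143), and in aged McSC its value was -0.61 ± 0.35 (adjusted p = 0.159). Ebp, the sterol isomerase, had 12.8, 14.9 and 11.7 CPM in melanoblasts, 5.84, 11.5, 7.59 and 7.78 CPM in adult McSC, and 7.08 and 6.48 CPM in aged McSC. Both McSC groups lay below the melanoblasts, but only the aged one passed the test (log2 fold change -0.96 ± 0.34, adjusted p = 0.0289), while in adult McSC it was -0.69 ± 0.27 (adjusted p = 0.0549).

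The 6 other sterol genes were called in neither comparison. They were Fdft1 (squalene synthase), Sqle (squalene epoxidase), Lss (lanosterol synthase), Msmo1 (methylsterol monooxygenase), Hsd17b7 and Sc5d. Their log2 fold changes in adult McSC lay between -0.37 for Msmo1 and 0.23 for Fdft1, and in aged McSC between -0.49 for Sqle and 0.06 for Hsd17b7. Sqle averaged 99.8 ± 11.6 CPM in melanoblasts, 86.3 ± 20.2 CPM in adult McSC, and 70.9 ± 4.79 CPM in aged McSC (SD). In Fdft1, 16.3% of 126-base stretches recur in another gene, mostly Ctsb on the opposite strand, and Tm7sf2 shares 7.07% with Vps51. Cyp51 overlaps exons of Akap9 on the opposite strand, which held 5082 to 8826 counts, and shares 0.922% of its stretches with it. The counting program was not given in the sources used here, nor its use of strand.

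Single libraries decided several of these calls. Dhcr7 was called in 16 of 17 alternatives in adult McSC and in 14 in aged McSC. Nsdhl was called in 14 in each comparison, and lost its call without adult replicate 1 or without aged replicate 2, at which Dhcr7 in aged McSC was lost as well. Tm7sf2 in adult McSC was lost without adult replicate 3. Cyp51 was called in 7 of 17 alternatives in adult McSC and 11 in aged McSC, and Ebp in 9 in aged McSC. These calls ended when melanoblast replicate 1 or 2 or aged replicate 1 or 2 was left out, and for Cyp51 in adult McSC also without adult replicate 1, 3 or 4. With the factors from abundant genes, Cyp51 changed sign in both comparisons and Nsdhl and Ebp changed sign in aged McSC.

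**Figure D2:**
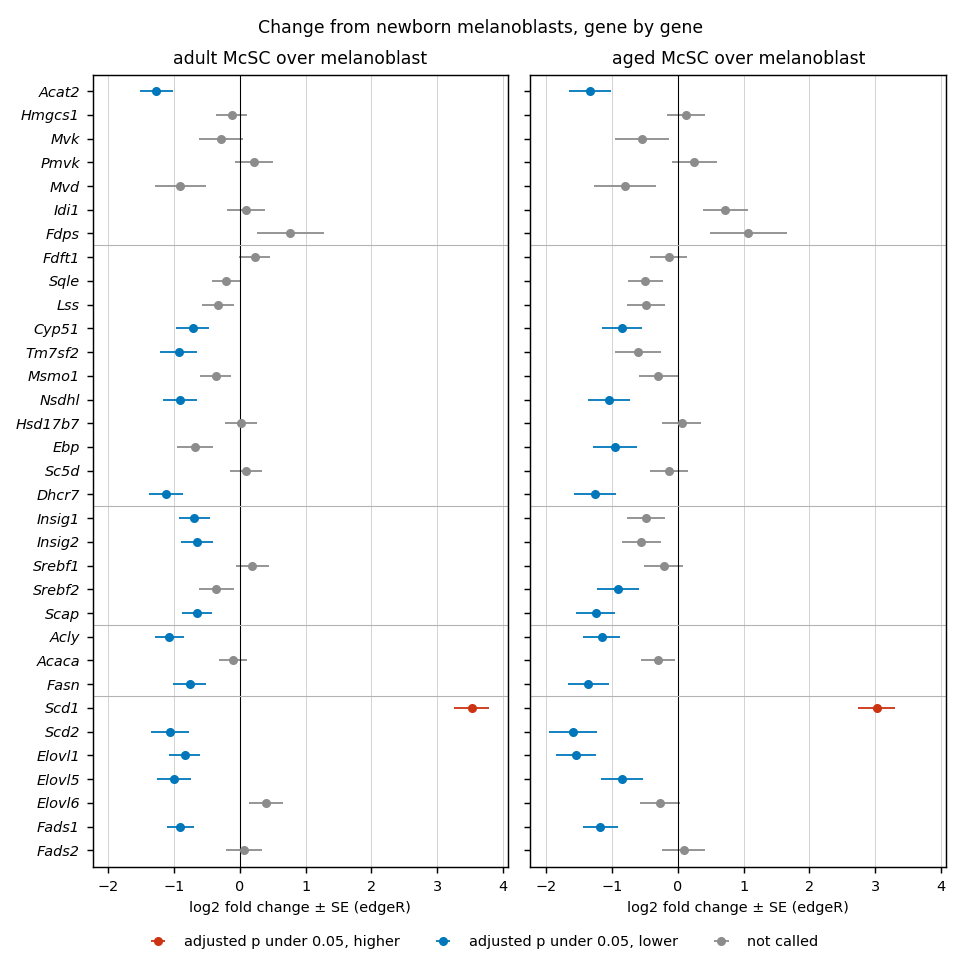
Log2 fold changes with SE of the 33 genes in adult McSC (left, n = 4) and aged McSC (right, n = 2) over melanoblasts (n = 3), from edgeR on the TMM scale. Colored points passed an adjusted p of 0.05. Scd1 stands alone at 3.52 and 3.03, the called falls lie between -0.65 and -1.59, and all of them turn or lose their call with factors set from abundant genes.

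Among the regulators, 3 of 5 fell and 0 rose in adult McSC, and 2 of 5 fell in aged McSC. Scap, the escort of SREBP, was the gene called in both. Scap had 40.9, 42.0 and 29.8 CPM in melanoblasts, 17.4, 25.5, 26.2 and 26.4 CPM in adult McSC, and 18.3 and 13.2 CPM in aged McSC. Every McSC library lay below the melanoblasts, with adult replicate 1 apart from the other adult libraries and within the aged range. The log2 fold change was -0.65 ± 0.23 in adult McSC (adjusted p = 0.033) and -1.25 ± 0.29 in aged McSC (adjusted p = 0.00183).

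The retention proteins Insig1 and Insig2 were called in adult McSC alone. Insig1 had 213, 182 and 137 CPM in melanoblasts, 92.6, 153, 89.3 and 103 CPM in adult McSC, and 107 and 146 CPM in aged McSC. Insig2 had 74.6, 97.3 and 50.5 CPM in melanoblasts, 38.9, 58.7, 45.2 and 45.4 CPM in adult McSC, and 38.2 and 62.9 CPM in aged McSC. For each, adult replicate 2 and aged replicate 2 overlapped the melanoblasts. The log2 fold changes in adult McSC were -0.69 ± 0.24 for Insig1 (adjusted p = 0.0257) and -0.66 ± 0.24 for Insig2 (adjusted p = 0.0409). In aged McSC they were -0.48 ± 0.29 (adjusted p = 0.173) and -0.55 ± 0.30 (adjusted p = 0.135).

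The transcription factor genes gave different results. Srebf1, whose products act mainly on fatty acid genes, had 33.2, 25.4 and 28.3 CPM in melanoblasts, 20.2, 45.8, 32.1 and 34.0 CPM in adult McSC, and 27.9 and 22.0 CPM in aged McSC. Its groups overlapped throughout, and log2 fold changes of 0.19 ± 0.25 and -0.21 ± 0.30 in adult and aged McSC were not called. Srebf2, whose product acts mainly on sterol genes, had 163, 143 and 108 CPM in melanoblasts, 58.4, 159, 103 and 110.3 CPM in adult McSC, and 81.0 and 65.9 CPM in aged McSC. Adult replicates 2 and 4 lay within the melanoblast range. Adult replicates 1 and 3 and both aged libraries lay below it, and adult replicate 1 was lower than either aged library. The fall was called in aged McSC alone (log2 fold change -0.91 ± 0.32, adjusted p = 0.0279), while in adult McSC the value was -0.36 ± 0.26 (adjusted p = 0.293). Srebf1 overlaps exons of Rai1 on the opposite strand, which held 550 to 2869 counts.

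The adult calls of the regulators were among the least stable. Scap was called in 5, Insig2 in 4 and Insig1 in 9 of 17 alternatives, and all 3 turned positive with the factors from abundant genes. Leaving out melanoblast replicate 1 or 2 or adult replicate 1, 3 or 4 ended each of them, and for Scap and Insig2 either aged library did so too. In aged McSC, Scap was called in 14 and Srebf2 in 11 of 17. Scap lost its call there without aged replicate 2, and Srebf2 without either aged library or without melanoblast replicate 1 or 2. Srebf2 turned positive with the factors from abundant genes.

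Promoters of the members were read from RefSeq (GRCm38.p6), which held 27 of the 33 members with 36 start sites. Within the 250 bases before a start, both strands were searched for the sterol response element TCACNCCAC, the NF-Y box CCAAT, the SP1 box GGGCGG and the E-box CACGTG, and matches may overlap. The sterol response element was found in 1 of 27 members, Hmgcs1, and in 331 of all 27025 genes of the table. CCAAT was found in 21 of 27 members (77.8%) and in 37.5% of all genes, GGGCGG in 22 (81.5%) and 35.4%, and CACGTG in 6 (22.2%) and 6.86%. By start site, the shares over all 32851 promoters were 1.05%, 33.8%, 32.7% and 6.02% for the 4 motifs in that order. These matches are letters and no measured binding. Shown is Hmgcs1, the gene with both TCACNCCAC and CCAAT and no called change (chr13:119690101-119690350, plus strand). Also shown are genes with CCAAT: Insig1, called lower in adult McSC alone (chr5:28071162-28071411, plus strand), and 2 called lower in McSC of both ages. The latter are Fasn (chr11:120824548-120824797, minus strand) and Elovl5 (chr9:77917115-77917364, plus strand). Each runs 5′ to 3′ toward the start, and capitals mark TCACNCCAC or CCAAT on either strand.
Hmgcs1: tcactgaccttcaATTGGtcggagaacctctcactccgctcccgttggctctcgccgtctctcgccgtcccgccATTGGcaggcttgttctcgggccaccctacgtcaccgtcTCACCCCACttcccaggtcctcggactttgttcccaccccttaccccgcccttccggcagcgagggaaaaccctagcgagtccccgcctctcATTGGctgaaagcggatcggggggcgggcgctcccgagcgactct
Insig1: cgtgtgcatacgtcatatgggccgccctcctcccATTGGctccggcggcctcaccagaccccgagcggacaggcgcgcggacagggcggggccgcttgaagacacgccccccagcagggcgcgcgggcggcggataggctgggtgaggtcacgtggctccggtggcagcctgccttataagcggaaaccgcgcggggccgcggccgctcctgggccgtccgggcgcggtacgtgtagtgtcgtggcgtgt
Fasn: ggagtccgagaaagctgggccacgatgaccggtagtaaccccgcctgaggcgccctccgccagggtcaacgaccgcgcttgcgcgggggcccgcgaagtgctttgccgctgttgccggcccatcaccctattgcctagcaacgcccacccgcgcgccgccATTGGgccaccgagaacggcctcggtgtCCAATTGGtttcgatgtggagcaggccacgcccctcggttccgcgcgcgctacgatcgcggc
Elovl5: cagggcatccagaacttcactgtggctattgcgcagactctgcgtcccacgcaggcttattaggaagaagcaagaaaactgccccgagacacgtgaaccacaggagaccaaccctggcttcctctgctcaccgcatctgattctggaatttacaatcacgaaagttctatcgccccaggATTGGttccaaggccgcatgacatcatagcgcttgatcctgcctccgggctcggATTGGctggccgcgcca

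In fatty acid synthesis, 2 of 3 genes fell and 0 rose in adult McSC, and the same 2 fell in aged McSC. Acly, which cleaves citrate to supply cytosolic acetyl-CoA to both branches, had 182, 199.8 and 142 CPM in melanoblasts, 63.2, 113, 75.1 and 80.4 CPM in adult McSC, and 82.2 and 74.1 CPM in aged McSC. All McSC libraries lay below all melanoblasts. The log2 fold change was -1.07 ± 0.23 in adult McSC (adjusted p = 0.000702) and -1.16 ± 0.28 in aged McSC (adjusted p = 0.00251).

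Fasn, the fatty acid synthase that builds palmitate, had 121, 132 and 138 CPM in melanoblasts, 46.7, 113, 75.7 and 71.9 CPM in adult McSC, and 59.0 and 42.6 CPM in aged McSC. The groups did not overlap, and adult replicate 2 was again the nearest to the melanoblasts. Fasn had a log2 fold change of -0.77 ± 0.24 in adult McSC (adjusted p = 0.0184) and -1.36 ± 0.31 in aged McSC (adjusted p = 0.0014). Acaca, the carboxylase that makes malonyl-CoA between these steps, averaged 46.3 ± 6.99 CPM in adult McSC and 50.0 ± 7.50 CPM in melanoblasts (SD), with a log2 fold change of -0.11 ± 0.21 that was not called. In Acaca, 20.9% of 126-base stretches recur in another gene, nearly all in Gm5182. Acly was called in 16 of 17 alternatives in adult McSC and 14 in aged McSC, and Fasn in 13 and 15. Fasn in adult McSC lost its call without adult replicate 1 or 4, and both genes lost it in aged McSC without aged replicate 2.

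Among desaturases and elongases, 1 of 7 genes rose and 4 fell in McSC of each age, and the rise was the only one among the 33 members. The stearoyl-CoA desaturases Scd1 and Scd2, neighbors on chromosome 19 that encode enzymes of the same reaction, moved in opposite ways. Scd1 had 20.4, 17.4 and 15.4 CPM in melanoblasts, 188, 197, 273 and 157 CPM in adult McSC, and 173 and 116 CPM in aged McSC. Every McSC library was several times above the highest melanoblast library. Its log2 fold change was 3.52 ± 0.27 in adult McSC (11.5-fold, adjusted p = 3.94e-10) and 3.03 ± 0.28 in aged McSC (8.14-fold, adjusted p = 3e-08). Scd1 was called in all 17 alternatives in both comparisons, with values of 3.35 to 4.32 in adult McSC and 2.76 to 4.17 in aged McSC.

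Scd2 had 318, 295 and 158 CPM in melanoblasts, 67.3, 188, 109.7 and 128 CPM in adult McSC, and 97.3 and 73.2 CPM in aged McSC. Adult replicate 2 exceeded melanoblast replicate 3, and the other McSC libraries lay below all melanoblasts. Scd2 had a log2 fold change of -1.06 ± 0.28 in adult McSC (adjusted p = 0.00587) and -1.59 ± 0.36 in aged McSC (adjusted p = 0.00149). It was called in 15 and 16 of 17 alternatives, and no left-out library ended the call. Per kilobase of exons, Scd1 was the highest of the 33 members in adult McSC at 41.7 CPM per kb, while it stood at rank 27 in melanoblasts, at 3.62 CPM per kb. Insig1 was the highest member in melanoblasts and in aged McSC, at 57.3 and 41.0 CPM per kb.

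The transcripts of both desaturases can be told apart by most reads. Their coding sequences have 1065 bases (Scd1) and 1074 bases (Scd2) in GENCODE M21, are 89.6% identical when aligned, and their longest identical run is 147 bases, longer than a 126-base read. Of all 126-base stretches of the transcripts, 1.68% of those of Scd1 and 0.403% of those of Scd2 recur in another gene. Shown, to make that visible, is the 90-base window with the most differences, 30 in all, which covers bases 75 to 164 of the Scd1 and 84 to 173 of the Scd2 coding sequence, with differing bases in capitals.
Scd1: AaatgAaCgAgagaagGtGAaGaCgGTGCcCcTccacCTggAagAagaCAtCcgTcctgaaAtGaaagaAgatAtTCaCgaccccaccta
Scd2: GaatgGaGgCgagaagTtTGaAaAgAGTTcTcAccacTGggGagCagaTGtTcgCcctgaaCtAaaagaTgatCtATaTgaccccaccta

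Markers of other skin cells also differed between McSC and melanoblasts, some lists upward and some downward. Of all genes tested, 15.1% rose and 18.3% fell in adult McSC, and 20.4% and 20.3% in aged McSC. Among genes of at least 5 CPM on average, 12.3% rose and 48% fell in adult McSC, and 11.7% and 54.4% in aged McSC. The marker counts below are to be read beside these shares. All 11 keratinocyte and hair follicle markers were higher in McSC of both ages, with sums of 81.2 to 261 CPM in melanoblasts, 1037 to 2296 CPM in adult McSC, and 865 and 1020.3 CPM in aged McSC. Adult replicate 3, the highest library for Scd1, was also the highest for this sum, whereas adult replicate 2, second for Scd1, was the lowest of the adult libraries. Of 10 sebaceous gland markers, 5 were higher and 1 lower in McSC of each age, and the sum was 82.2 to 117 CPM in melanoblasts, 103 to 164 CPM in adult McSC, and 119 and 134 CPM in aged McSC. Of these 10, 9 had a positive log2 fold change in McSC of each age, and the list's median was 1.07 in adult and 1.72 in aged McSC. Awat1, Awat2, Mc5r and Elovl3, which are among the 10, were detected at no more than 3.14 CPM in any library. Of 8 adipocyte markers, 1 was higher and 1 lower in adult McSC, and the sum was 29.8 to 37.2 CPM in adult McSC and 11.7 to 24.3 CPM in melanoblasts. In aged McSC 2 of these 8 were higher and 1 lower. Adipoq, which is among the 8, did not exceed 1.62 CPM in any library. None of the markers of these 3 lists was at 0 in any library, and their part in the rise of Scd1 was not tested. Of 6 macrophage and dendritic cell markers, 4 were higher in adult and 5 in aged McSC, with sums of 24.0 to 40.0 CPM in melanoblasts, 46.8 to 68.0 CPM in adult McSC, and 62.4 and 97.8 CPM in aged McSC. Of 6 endothelial markers, 4 were higher in adult and 1 in aged McSC, with sums of 40.2 to 82.1 CPM in melanoblasts, 59.9 to 221 CPM in adult McSC, and 50.8 and 51.7 CPM in aged McSC. Of 7 fibroblast markers, 1 was higher and 4 lower in adult McSC and 6 were lower in aged McSC, with sums of 545 to 2068 CPM in melanoblasts, 465 to 932 CPM in adult McSC, and 112 and 221 CPM in aged McSC. Of 9 Schwann cell markers, 4 were higher in adult McSC, and 2 were higher and 3 lower in aged McSC. They summed to 619 to 856 CPM in melanoblasts, 1027 to 1460.3 CPM in adult McSC, and 474 and 544 CPM in aged McSC. The part of these 4 lists in the members' levels was not tested either. Scd3, a close relative best known from sebaceous gland, held 18 to 55 counts in melanoblast libraries, 140 to 222 in adult McSC and 101 and 231 in aged McSC.

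Fads1, the delta-5 desaturase of polyunsaturated fatty acids, had 113, 105 and 77.2 CPM in melanoblasts, 50.0, 55.4, 52.5 and 52.1 CPM in adult McSC, and 49.8 and 37.0 CPM in aged McSC. The adult libraries were nearly level and all McSC lay below the melanoblasts. Its log2 fold change was -0.91 ± 0.21 in adult McSC (adjusted p = 0.00189) and -1.18 ± 0.27 in aged McSC (adjusted p = 0.00129). Fads2, the delta-6 desaturase that acts before it, was low and level, at 8.6 ± 1.6 CPM in adult McSC and 8.2 ± 0.68 CPM in melanoblasts (SD), with a log2 fold change of 0.06 ± 0.28 that was not called.

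Elovl5 elongates polyunsaturated fatty acids. It had 73.2, 63.4 and 30.2 CPM in melanoblasts, 22.7, 34.4, 24.8 and 28.9 CPM in adult McSC, and 26.7 and 35.1 CPM in aged McSC. Melanoblast replicate 3 lay within the McSC range, far from the other melanoblasts. The log2 fold change was -1.0 ± 0.26 in adult McSC (adjusted p = 0.00414) and -0.85 ± 0.32 in aged McSC (adjusted p = 0.0368).

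Elovl1, which makes very long saturated chains, had 55.6, 51.7 and 31.8 CPM in melanoblasts, 20.1, 32.0, 26.4 and 24.8 CPM in adult McSC, and 18.3 and 13.2 CPM in aged McSC. The aged libraries were the lowest, and adult replicate 2 was level with melanoblast replicate 3. Its log2 fold change was -0.84 ± 0.24 in adult McSC (adjusted p = 0.00896) and -1.55 ± 0.31 in aged McSC (adjusted p = 0.000373). Elovl1 overlaps exons of Cdc20, a mitosis gene on the opposite strand with 68 to 805 counts, so some reads may belong to either gene. Elovl6, which lengthens palmitate to stearate, averaged 101 ± 25.6 CPM in adult McSC and 76.9 ± 17.1 CPM in melanoblasts (SD), and its log2 fold change of 0.39 ± 0.26 was not called.

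Of these falls, Fads1 was called in 16 of 17 alternatives in adult McSC and 15 in aged McSC, where aged replicate 2 decided it. Elovl5 was called in 14 and 8. It lost its call in adult McSC without melanoblast replicate 1, and in aged McSC without melanoblast replicate 1 or 2, adult replicate 1 or 4, or either aged library, and turned positive there with the factors from abundant genes. Elovl1 was called in 13 and 16, and lost its call in adult McSC without melanoblast replicate 1 or adult replicate 1.

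**Figure D3:**
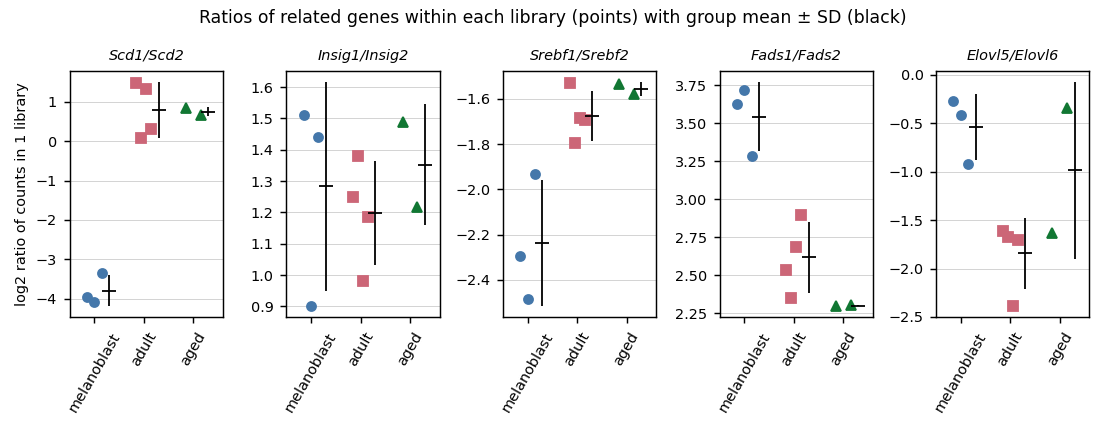
Log2 ratio of the counts of related genes within a library, for melanoblasts (n = 3), adult McSC (n = 4) and aged McSC (n = 2), with each pair on its own vertical axis. Points are libraries and black bars are the group mean ± SD. Scd1 over Scd2 lies at -4.07 to -3.35 in melanoblasts and above 0 in every McSC library.

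Ratios of related genes within a library do not depend on the scale between libraries, and 5 were compared between adult McSC and melanoblasts. Of the summed Scd1 and Scd2 counts, Scd1 took 6.01%, 5.57% and 8.90% in melanoblasts, 73.7%, 51.2%, 71.3% and 55.2% in adult McSC, and 64.0% and 61.3% in aged McSC. All McSC libraries lay far above all melanoblasts. Within adult McSC, the 95% Wilson intervals of the highest share (72.6% to 74.7%) and the lowest (50.1% to 52.2%) did not meet, so the spread exceeded counting error, which is all that they cover. The mean log2 ratio was 0.79 ± 0.71 in adult McSC and -3.79 ± 0.39 in melanoblasts (SD, n = 4 and n = 3), a difference of 4.58. In an exact two-sided permutation test over libraries this gave p = 0.0571, the smallest that 4 against 3 libraries allow, and 0.0714 after adjustment over the 5 ratios.

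Srebf1 over Srebf2 had a mean log2 ratio of -1.68 ± 0.11 in adult McSC and -2.24 ± 0.28 in melanoblasts, a difference of 0.56. Srebf1 thus made up 22.3% to 25.7% of both genes' counts in adult McSC and 15.1% to 20.7% in melanoblasts, and the groups did not overlap. Fads1 over Fads2 had 2.62 ± 0.23 in adult McSC and 3.54 ± 0.23 in melanoblasts, a difference of -0.93 with no overlap. Elovl5 over Elovl6 had -1.84 ± 0.36 in adult McSC and -0.54 ± 0.34 in melanoblasts, a difference of -1.31 with no overlap, but the aged libraries were split, with replicate 1 at -1.63 among adult values and replicate 2 at -0.34 among melanoblast values. Each of these 3 ratios had the same exact permutation p of 0.0571, adjusted 0.0714. Insig1 over Insig2 had 1.20 ± 0.17 in adult McSC and 1.28 ± 0.33 in melanoblasts, overlapped, and gave an exact permutation p of 0.686. Its difference was -0.09 and became 0.028 without melanoblast replicate 1. How often other gene pairs lack overlap was not counted. Of single genes tested, 39.3% did not overlap between adult McSC and melanoblasts. The median log2 fold change there was -0.83 over the 4392 abundant genes and 0.39 over all genes. Fads1 averaged 98.3 CPM and Fads2 8.2 CPM in melanoblasts, and the part of gene level in the ratio differences was not tested.

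In a comparison added after the values were seen, all 6 McSC libraries were set against the 3 melanoblast libraries. The ratios Scd1/Scd2, Srebf1/Srebf2 and Fads1/Fads2 then had differences of 4.57, 0.60 and -1.03, with no overlap and an exact permutation p of 0.0238, the smallest that this design allows (adjusted 0.0397). Since the lack of overlap had been seen beforehand, that p was fixed in advance and no conclusion is drawn from it. The pooled McSC also differ in age and colony. Elovl5/Elovl6 had p = 0.0714 and Insig1/Insig2 p = 0.857 in the same exact permutation test.

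Between aged and adult McSC, whose age and colony cannot be told apart, no member passed the threshold. In edgeR 0 of 33 were called, beside 0.303% of all genes tested (0.0532% higher and 0.25% lower). Of the members, 4 had an unadjusted p under 0.05 (Scap, Fasn, Elovl1 and Elovl6), and DESeq2 and limma voom also called 0. The libraries did not overlap for 1 member higher and 2 lower in aged McSC, beside 15.5% and 12.1% of all genes (27.7% in all). Log2 fold changes ran from -0.71 for Elovl1, whose adjusted p of 0.414 was the smallest, to 0.63 for Idi1, with SE of 0.24 to 0.55. Elovl1 had 18.3 and 13.2 CPM in aged McSC, against 20.1 to 32.0 CPM in adult McSC, without overlap. Scap had 18.3 and 13.2 CPM in aged McSC and 17.4 to 26.4 CPM in adult McSC, which overlapped. The files give Scap and Elovl1 equal counts in each aged library and different counts in the adult and melanoblast libraries. Idi1 had 21.8 and 38.1 CPM in aged McSC and 12 to 31.4 CPM in adult McSC, again overlapping. Scd1 was at -0.50 ± 0.27 between aged and adult McSC, Fasn at -0.59 ± 0.29 and Srebf2 at -0.55 ± 0.30, none of them called. With 2 aged libraries and SE of this size, smaller changes were not detectable. Of 9 Schwann cell markers 5 were called lower in aged than in adult McSC, and of 7 fibroblast markers 3, while no marker of the other lists was called. The part of these markers in the members' differences was not tested. These contrasts share the adult libraries with the adult and melanoblast comparison.

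Within groups, some libraries were high or low for most members; the same counts over all genes were not made. Adult replicate 2 was the highest adult library for 28 of 33 members and adult replicate 1 the lowest for 26, and melanoblast replicate 3 was the lowest of its group for 28. Summed over the members, melanoblasts had 2132 ± 429 CPM, adult McSC 1662 ± 375 CPM and aged McSC 1438 ± 68.1 CPM (SD). The adult libraries spanned 1253 CPM in replicate 1 and 2161 CPM in replicate 2. Melanocyte markers summed to 4174 CPM in adult replicate 1 and 10441 CPM in adult replicate 2, and to 13959 CPM in melanoblast replicate 3 beside 23892 and 25595 CPM in the other melanoblasts. Mitochondrial rRNA took 33.6% of counts in adult replicate 1 and 21.9% in adult replicate 2. The part of these differences in the members' levels was not tested.

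**Figure D4:**
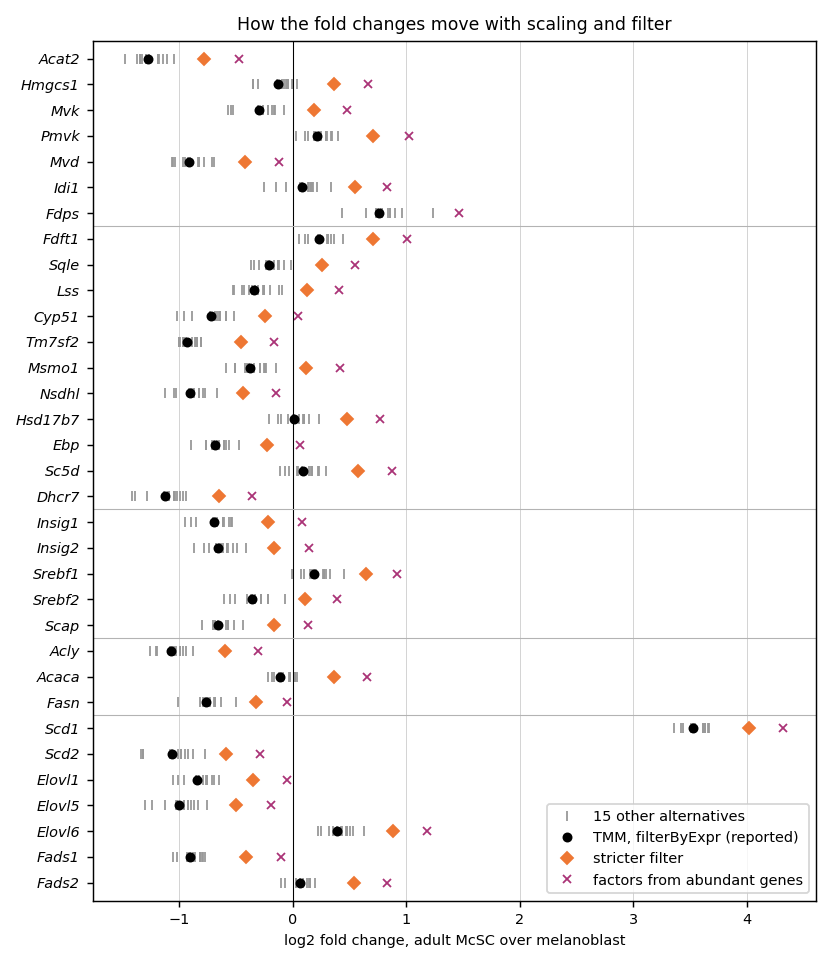
Log2 fold change of each member in adult McSC over melanoblasts under the reported setting (black), a filter that kept genes reaching 5 CPM in 2 or more libraries (orange), factors from abundant genes (purple) and the 15 other alternatives (gray ticks). The median of the members was -0.37 as reported, -0.03 with the stricter filter, which left 32 of them, and 0.39 with the factors from abundant genes. Scd1 stays above 3, while the 14 called falls shrink to between -0.48 and 0.14 with the factors from abundant genes, where Cyp51, Insig1, Insig2 and Scap pass 0.

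Genes around the pathway were counted from lists of related functions. Of 5 genes for SREBP processing and turnover, 5 fell in adult McSC and 4 in aged McSC, but 1 and 0 fell with the factors from abundant genes. Of all genes tested 18.3% were lower in adult and 20.3% in aged McSC, and 48% and 54.4% among genes of at least 5 CPM. The shares that were higher were 15.1% in adult and 20.4% in aged McSC, and 12.3% and 11.7% among genes of at least 5 CPM. The falls and rises in this and the other lists are to be read beside those shares. Without melanoblast replicate 1 or 2 or adult replicate 1, 3 of the 5 fell in adult McSC. Mbtps2, a protease that releases the SREBP transcription factor domain, averaged 15.6 ± 2.45 CPM in adult McSC and 43.9 ± 6.06 CPM in melanoblasts (SD; log2 fold change -1.49 ± 0.25, adjusted p = 6.58e-05). In the non-sterol isoprenoid branch, 3 of 8 genes fell in adult McSC and 4 in aged McSC, and with the factors from abundant genes 1 rose and 1 fell in adult McSC and 1 rose and 0 fell in aged McSC. Of the 8, 1 fell in adult McSC without melanoblast replicate 1 or 2 or adult replicate 1, and 2 fell in aged McSC without aged replicate 2. The largest of these was Nus1, a subunit of the dolichol-making prenyltransferase, at 27.9 ± 3.46 CPM in adult McSC and 76.2 ± 22.9 CPM in melanoblasts (log2 fold change -1.45 ± 0.24, adjusted p = 6.36e-05).

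Of 16 genes for cholesterol uptake, storage, transport and efflux, 4 rose and 7 fell in adult McSC, against 8 and 1 with the factors from abundant genes. Abca1, the exporter of cholesterol to apolipoproteins, rose to 127 ± 27.6 CPM in adult McSC, against 36.3 ± 5.12 CPM in melanoblasts (log2 fold change 1.80 ± 0.23, adjusted p = 2.27e-06). Npc2, which carries cholesterol out of lysosomes, fell to 37.9 ± 5.12 CPM in adult McSC, against 134 ± 46.7 CPM in melanoblasts (log2 fold change -1.82 ± 0.24, adjusted p = 2.78e-06). Scarb1, the receptor for high-density lipoprotein, fell to 20.5 ± 8.77 CPM in adult McSC, against 45.5 ± 10.7 CPM in melanoblasts (log2 fold change -1.15 ± 0.28, adjusted p = 0.00286). In aged McSC 2 of the 16 rose and 7 fell, against 7 and 1 with the factors from abundant genes. In adult McSC 2 rose without melanoblast replicate 1 or adult replicate 3 or 4, and 4 fell without melanoblast replicate 1 or adult replicate 1.

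Of 23 genes for fatty acid supply, activation and esterification, 6 rose and 8 fell in adult McSC, against 9 and 3 with the factors from abundant genes. Elovl4, which makes the ultra-long chains of skin barrier lipids, averaged 10.2 ± 3.6 CPM in adult McSC and 1.33 ± 0.84 CPM in melanoblasts (log2 fold change 2.95 ± 0.40, adjusted p = 3.74e-06). Me1, the malic enzyme that supplies NADPH, averaged 15.6 ± 4.44 CPM in adult McSC and 3.16 ± 1.32 CPM in melanoblasts (log2 fold change 2.31 ± 0.32, adjusted p = 6.77e-06). Dgat2, which forms triglycerides, averaged 8.33 ± 1.20 CPM in adult McSC and 2.00 ± 0.92 CPM in melanoblasts (log2 fold change 2.05 ± 0.35, adjusted p = 8.13e-05). Acsl3, an acyl-CoA synthetase of lipid droplets, moved the other way, at 100.3 ± 22.5 CPM in adult McSC and 294 ± 61.6 CPM in melanoblasts (log2 fold change -1.55 ± 0.23, adjusted p = 1.18e-05). The mean melanoblast levels of Elovl4 and Dgat2 were low, above but near the 95th percentile of the olfactory and vomeronasal receptor genes. That percentile was 0.857 CPM in melanoblasts and 1.94 CPM in adult McSC, so the size of these rises is uncertain. In aged McSC 6 rose and 10 fell, against 11 and 1 with the factors from abundant genes and 7 and 3 without aged replicate 2. In adult McSC 5 fell without melanoblast replicate 1 or 2, and 4 without adult replicate 1.

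Of 18 genes of fatty acid oxidation, 2 rose and 12 fell in McSC of each age, against 4 and 3 in adult McSC and 4 and 1 in aged McSC with the factors from abundant genes. In adult McSC 8 fell without melanoblast replicate 2 or adult replicate 1, and 1 rose without melanoblast replicate 1 or 2 or adult replicate 2 or 4. Without aged replicate 2, 8 fell in aged McSC. Ppara, the nuclear receptor for fatty acids, averaged 5.56 ± 1.96 CPM in adult McSC and 0.943 ± 0.261 CPM in melanoblasts (log2 fold change 2.56 ± 0.45, adjusted p = 9.24e-05). Its melanoblast level was close to the 95th percentile of the olfactory and vomeronasal receptor genes, 0.857 CPM there and 1.94 CPM in adult McSC. The size of that rise is therefore uncertain. Acadl, a long-chain acyl-CoA dehydrogenase, averaged 45.5 ± 6.91 CPM in adult McSC and 126 ± 39.2 CPM in melanoblasts (log2 fold change -1.47 ± 0.24, adjusted p = 5.54e-05). None of the 70 genes of these lists was called between aged and adult McSC.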

How the data were processed

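RNA-seq counts of 9 libraries were analysed. Per the labels, RNA was amplified to cDNA before library construction and sequenced as 126-base read pairs. The build was mm10, and the tools, per the submitters' processing notes, were STAR 2.5.2, Trimmomatic 0.36, SAMtools 1.9, FastQC 0.11.8 and DESeq2 1.22.2. The counting program was not given in the sources used here, nor its annotation and strand setting. The deposited files hold unnormalized counts for Ensembl genes. GENCODE M21 named 49412 of the 49671 identifiers. A count of 3, which a count of 0 allows, equals 0.117 to 0.187 CPM.

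With edgeR 4.0.16 in R 4.3.3, filterByExpr kept 31961 genes. TMM factors and a group means model over all 9 libraries without covariates were used, and the robust quasi-likelihood F test was adjusted by Benjamini-Hochberg within each of 3 comparisons at 0.05. Scripts were tested on simulated data. The within-library ratios used a prior count of 2. Chi-square per degree of freedom between libraries of a group was 15.2 to 63.3, beyond counting noise. Since the RNA was amplified, that does not establish independent pools, and the libraries were counted as titled.

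Values in every library are given for members that passed the threshold and for the regulators, and up to 4 members of each other list were named by smallest p. Some genes that this rule takes are not reported here. The members and lists were chosen with earlier results of these data known. Alternatives were RLE factors, factors from genes above a log2 CPM of 5, no filter, a stricter filter, limma voom with quality weights (limma 3.58.1), DESeq2 1.42.0, only the groups compared, a replicate block, and leaving out each library.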

Additional observations from a re-analysis of the deposited data

Results flagged for a closer look

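Of the groups of 4 adult McSC libraries examined for a library far from the other 3 (38 measures), 3 had one. Chance alone marks about 1 in 20 such groups. Cyp51 was 117.9 CPM in adult replicate 2, the other adult libraries being at 56.5 to 63.9 CPM. Scap was 17.4 CPM in adult replicate 1, the others being at 25.5 to 26.4 CPM. The log2 ratio of Elovl5 to Elovl6 was -2.39 in adult replicate 3, the others being at -1.71 to -1.61.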

How the results depend on the processing

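With the factors from abundant genes, 13 members were higher and 0 lower in adult McSC than in melanoblasts, and 17 higher and 0 lower in aged McSC. With the stricter filter the counts were 8 and 4 in adult McSC and 8 and 5 in aged McSC. Without a filter, 9 fell in adult McSC and 2 rose in aged McSC, and 2 rose in aged McSC with limma voom and with only the groups compared. These settings move the median over all genes, which was 1.15, 0.05 and 0.76 in adult McSC with the abundant factors, the stricter filter and no filter. Leaving out 1 library gave 8 to 18 members called in adult McSC (7 to 17 lower, 1 higher), 4 to 16 in aged McSC over melanoblasts (3 to 14 lower, 1 to 2 higher) and 0 between aged and adult McSC. The lowest counts came without adult replicate 1 and without aged replicate 2. Without melanoblast replicate 1, 9 were called in adult McSC. Among genes called with either factors, log2 fold changes that turned positive with the abundant factors were, in adult McSC, Hmgcs1 0.67, Sqle 0.55, Cyp51 0.045, Msmo1 0.42, Insig1 0.080, Insig2 0.14, Scap 0.13, Acaca 0.66, Fnta 0.15 and Mbtps1 0.033. In aged McSC they were Fdft1 1.02, Sqle 0.65, Lss 0.66, Cyp51 0.30, Msmo1 0.87, Nsdhl 0.12, Ebp 0.18, Sc5d 1.03, Insig1 0.67, Insig2 0.61, Srebf1 0.92, Srebf2 0.25, Acaca 0.84, Elovl5 0.34, Elovl6 0.90, Mylip 0.054 and Ggps1 0.35. Others turned positive without a call in either setting. With the stricter filter Acaca was 0.37 in adult McSC, and Fdft1 0.57 and Sc5d 0.58 in aged McSC. Over 6 McSC libraries the ratio differences were 4.57 for Scd1/Scd2, 0.60 for Srebf1/Srebf2 and -1.03 for Fads1/Fads2, with p at its smallest value there. Leaving out 1 library gave 4.35 to 4.83, 0.44 to 0.71 and -1.06 to -0.84, with -1.50 to -1.13 for Elovl5/Elovl6 and -0.28 to 0.028 for Insig1/Insig2. With the replicate block, 1 member rose and 12 fell in adult McSC, 1 and 13 in aged McSC over melanoblasts, and 0 between aged and adult McSC. Same-numbered melanoblast and adult libraries deviated from their group means with correlations of -0.08, 0.20 and -0.04. Libraries of different numbers in these groups had correlations of -0.24 to 0.28. With so few libraries per group, these values neither show nor exclude a pairing by replicate number. Scd1 was called under all 17 alternatives in both comparisons with melanoblasts. Apart from scaling and left-out libraries, the cause was not tested.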

Other observations

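Relatives of the members outside the list were read as raw counts, which were not scaled for library totals and not tested. Acat1, the mitochondrial thiolase, held 2138 to 2939 counts in melanoblasts, 990 to 1087 in adult McSC and 497 and 797 in aged McSC. Idi2, a relative of Idi1, held 38 to 125 counts in adult McSC and 26 to 89 in melanoblasts.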
